A study of Mus musculus with 4 samples.

Results

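CD8 T cells of the mouse heart were picked out of a single-cell RNA table by a fixed rule on raw transcript counts, and 233 of 38910 analysed cells met it. Counts are of unique molecular identifiers (UMIs), each standing for 1 captured RNA molecule. Cells were analysed from 500 UMIs and 250 genes upward, with no more than 15% of UMIs from mitochondrial genes. A CD8 T cell then had at least 2 UMIs of Cd3e, Cd3d and Cd3g together, at least 1 of Cd8a and Cd8b1 together, none of Cd4, Cd79a, Cdh5 or Pdgfra, and at most 2 of C1qa, C1qb and C1qc. The values of these 12 genes chose the members and are not results. T cells with at least 1 Cd4 UMI and none of Cd8a or Cd8b1, under the same exclusions, numbered 135 and are called CD4 T cells. A further 360 T cells had neither coreceptor, and 6 had both, so that CD8 cells made up 31.7% of 734 T cells.

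Cardiac interstitial cells (the non-cardiomyocyte cells of the heart) came from Ccr2creERT2-Ai14 mice 1 month after stroke or under control conditions, with 2 samples of each. The strain name denotes a tamoxifen-dependent Cre recombinase driven by Ccr2, the receptor that brings monocytes out of the bone marrow, and a Cre-dependent tdTomato reporter, and stroke and control animals share both. Hearts were digested, cardiomyocytes strained out, dead cells depleted and live nucleated cells sorted before 10x Genomics 3′ libraries were made, and each step can set how many T cells were recovered. Age, sex and the number of hearts per sample were not used here. The cells stand in 1 table with 4 numbered libraries of 31955157 to 45834980 UMIs, and no label ties a library to a sample, so that stroke and control were not compared and each library is described by its number. With no replicate groups there is no test between conditions, and differences are given as levels with counting intervals.

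CD8 T cells recognise peptides on MHC class I through a T cell receptor (TCR) and a CD8 coreceptor, which is a pair of the chains encoded by Cd8a and Cd8b1 on conventional cells and a pair of Cd8a chains on some innate-like T cells. Naive and central memory cells pass through lymph nodes with the help of the chemokine receptor Ccr7. Effector and memory cells carry the chemokine Ccl5, killing proteins such as granzymes, and receptors shared with natural killer (NK) cells, and the heart holds such cells in inflammation and after infarction.

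The libraries held 43, 102, 45 and 43 CD8 T cells. These were 0.437% (95% interval 0.316 to 0.588) of the cells of library 1, 1.03% (0.844 to 1.25) of library 2, 0.511% (0.373 to 0.683) of library 3 and 0.414% (0.299 to 0.557) of library 4, and 0.599% over all. Library 2 stood above the others, and the intervals of libraries 1, 3 and 4 overlapped. CD4 T cells were also most frequent in library 2, with 24, 73, 15 and 23 cells. Of CD8 and CD4 cells together, CD8 cells made up 63.3% (58.2 to 68.3), with 64.2%, 58.3%, 75.0% and 65.2% in libraries 1 to 4. The set that met the CD8 rule was thus larger than the CD4 set in every library. The CD8 rule accepts UMIs of Cd8a or Cd8b1, whereas the CD4 rule needs Cd4. T cells with neither coreceptor numbered 94, 131, 62 and 73, more than CD8 cells in each library. How many of them were CD4 or CD8 cells was not tested. All intervals here are exact (Clopper-Pearson for shares, Poisson for levels, conditional binomial for ratios) and cover counting error only.

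**Figure D1:**
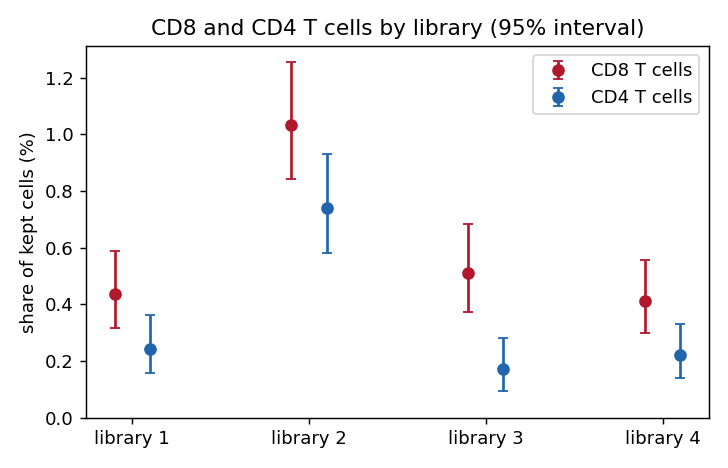
Share of analysed cells (%, vertical axis) that met the CD8 (red) and CD4 (blue) rule in each of the 4 libraries, with exact 95% intervals. The CD8 set is larger than the CD4 set in every library, and both sets are most frequent in library 2, at 1.03% and 0.740%. T cells with neither coreceptor are not shown.

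The CD8 cells held 1307306 UMIs in all, with a median of 5141 UMIs and 1879 genes per cell, against 4433 UMIs in CD4 cells. They had a median of 9 Cd3 UMIs and 4 Cd8 UMIs. At the edge of the rule, 11 members had exactly 2 Cd3 UMIs and 43 had exactly 1 Cd8 UMI. Just outside it, 3 cells had only 1 Cd3 UMI, 41 carried a Cdh5 or Pdgfra UMI, 9 a Cd79a UMI, 6 a Cd4 UMI and 5 more than 2 C1q UMIs. Scrublet, a caller of droplets with 2 cells, marked 5 members, 4 of them in library 2. Of all barcodes, 322 carried a barcode sequence found in more than 1 library, among them 2 CD8 cells, and no sequence was shared between CD8 cells of different libraries.

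The T cell label was checked on genes that the rule did not use. Levels are given in CPM, the UMIs of a gene per 1000000 UMIs of the set. Trac, the constant part of the TCR alpha chain, stood at 291 CPM in CD8 cells, 424 in CD4 cells, 19.1 in NK cells and 0.823 in B cells. NK cells here are 83 cells under the same exclusions. They had no Cd3 UMI, at least 2 of Nkg7 and at least 1 of Ncr1 and Klrb1c together. B cells are 1400 cells with at least 2 Cd79a UMIs and no Cd3 UMI, under the same limits on C1q, Cdh5 and Pdgfra. Themis, a TCR signalling protein, stood at 654, 539.6, 0 and 0.137 CPM in the same order. Of 14 genes of the TCR complex and its signalling outside the rule, none differed 2-fold between CD8 and CD4 cells. Trac and Themis thus stood far above their levels in NK and B cells, which were both chosen without Cd3 UMIs. The 14 genes as a list did not set CD8 cells far apart from NK cells. They summed to 5562 CPM in CD8, 6366.5 in CD4, 4643 in NK and 1059 in B cells.

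Markers of other cells were also measured, with lists for 10 other cell types that leave out the genes of the rule. NK markers summed to 76.7 to 679 CPM over the libraries, against 11417 CPM in NK cells, and B cell markers to 68.3 to 151 against 9249.8 CPM in B cells. Fibroblast markers ranged widely, from 31.6 to 1194 CPM in CD8 cells and from 25.95 to 2433 in CD4 cells, and endothelial markers from 179 to 424 in CD8 cells. Macrophage markers reached 234 CPM in CD8 cells of library 2 and 2323 CPM in the 15 CD4 cells of library 3, where 166 Lyz2 UMIs gave most of it. In CD8 cells 1 cell held 74.1% of the Lyz2 UMIs. Neutrophil, ILC2, mural, erythroid or platelet, and cardiomyocyte lists each stayed at or under 39.03 CPM in CD8 cells of every library. The macrophage gene Pf4, the neutrophil genes Csf3r and Cxcr2, the ILC2 genes Il1rl1, Areg, Il13, Il5 and Arg1, the platelet gene Ppbp and the cardiomyocyte genes Ttn and Ryr2 were at 0. The part of these transcripts in the results was not tested.

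Gm44174, a long noncoding RNA gene beside Cd8a, was found in CD8 cells and not in CD4, NK or B cells. It had 181 UMIs in 99 of 233 CD8 cells (138 CPM, 119 to 160.2) and none in the other 3 sets, at least 28.3-fold higher than in CD4 cells when 3 UMIs are allowed for a count of 0. That bound was 15.9-fold without library 2, which held the most cells. It stood at 219.5, 106, 166 and 128 CPM in libraries 1 to 4. T cells with neither coreceptor held 9 UMIs of it (5.67 CPM) and 12661 endothelial cells 1. In build GRCm38 Gm44174 runs along the plus strand of chromosome 6, chr6:71353035-71373284, between Cd8b1 (chr6:71322788-71337494) and Cd8a (chr6:71373427-71379173), both also on the plus strand. The last of its 2 exons, chr6:71373225-71373284, ends 142 bases before Cd8a begins. Gm44174 stood at 128 CPM in CD8 cells with Cd8a and no Cd8b1 UMI and at 140.0 CPM in those with Cd8b1. Among the latter it stood at 159 CPM (132 to 190) in cells that also had Cd8a. In cells with Cd8b1 and no Cd8a UMI it stood at 102 CPM (72.2 to 140). CD4 cells were chosen to have no Cd8a UMI, so that the contrast with them may partly follow from the rule. Reads of Gm44174 and of a longer Cd8a transcript on the same strand cannot be told apart in these counts. The 250 bases before Cd8a are shown because they hold that exon, which is in capitals (RefSeq, GRCm38.p6, plus strand, chr6:71373177-71373426).
Cd8a upstream: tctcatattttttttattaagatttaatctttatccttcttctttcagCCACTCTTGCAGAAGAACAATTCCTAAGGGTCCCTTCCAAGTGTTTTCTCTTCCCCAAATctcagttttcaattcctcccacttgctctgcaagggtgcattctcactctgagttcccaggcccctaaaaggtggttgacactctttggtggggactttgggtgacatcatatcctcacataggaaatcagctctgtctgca

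Against CD4 cells, CD8 cells carried more of most CD8 lineage genes and of the memory-associated surface gene Ly6c2, and less of most helper genes, whereas naive genes were near equal. Of the wider effector list 5 of 14 genes were higher, and of the memory and NK-type receptor list 8 of 19. A gene was compared with at least 20 UMIs in both sets together and called higher or lower at 2-fold or more. Of 7860 genes, 365 (4.64%) were higher and 341 (4.34%) lower in CD8 cells, with a median ratio of 0.951. The sets are defined by Cd8a, Cd8b1 and Cd4, so that these genes describe the split and are no test of it.

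Of 9 genes of the CD8 lineage and its killing program, 8 were higher in CD8 cells, with a median ratio of 5.27. Runx3, a transcription factor of CD8 lineage choice, stood at 181, 113, 150.0 and 169 CPM in CD8 cells of libraries 1 to 4 and at 29.7, 65.6, 64.9 and 60.1 in CD4 cells (2.37-fold, 1.65 to 3.49 over all). Nkg7, a granule protein of killer cells, stood at 1400.2, 399, 703 and 511 against 326, 185, 143 and 241 CPM (2.98-fold, 2.48 to 3.61), and Klrd1, the CD94 receptor chain, at 307, 181, 241 and 169 against 19.8, 38.8, 64.9 and 30.1 (5.61-fold, 3.66 to 8.999). For these 3 genes every CD8 library lay above every CD4 library. Klrd1 was seen in 57.5% (50.9 to 63.9) of CD8 cells, 8.15% of CD4 cells and 0.143% of B cells, whose median of 4079 UMIs was lower than the 5141 of CD8 cells. In cells thinned to 1000 UMIs the shares were 19.4%, 2.96% and 0.0725%.

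The other members were Eomes, a memory and effector transcription factor (77.3 against 14.7 CPM), the protease Ctsw (197 against 81.5 CPM), the adhesion receptor Crtam (51.3 against 4.89 CPM), the receptor Cd160 (48.96 against 4.89 CPM) and the granzyme Gzmm (29.8 CPM against none, at least 6.099-fold). A single cell held 30.7% of the Eomes UMIs and 1 cell 28.4% of the Crtam UMIs. Without library 2 the ratio fell from 5.27 to 3.401 for Eomes and from 10.5 to 3.68 for Crtam. Only Tbx21, the T-bet factor, did not reach 2-fold (33.7 against 27.7 CPM). Without library 1 the list again had 8 of 9 genes higher, with a median ratio of 4.69.

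Ly6c2, a surface protein of memory CD8 cells and monocytes, separated the sets in every library. It stood at 342, 494, 774 and 465 CPM in CD8 cells and at 69.2, 41.7, 51.9 and 40.1 in CD4 cells of libraries 1 to 4 (11.002-fold, 7.59 to 16.6 over all), with no overlap. Library 3 was the highest and library 1 the lowest of the CD8 libraries. Ly6c2 was seen in 55.8% (49.2 to 62.3) of CD8 cells, 9.63% of CD4 cells and 2.14% of B cells, and after thinning in 29.7%, 2.96% and 0.653%. Ly6c1 is a near-identical copy, and the sources used here do not give how reads common to both were counted. Ccl5, which calls leukocytes to inflamed tissue, stood at 6933, 1637, 4959 and 3553 against 1988, 1091, 415 and 281 CPM, higher in CD8 cells within each library, although CD4 cells of library 1 lay above CD8 cells of library 2. Its ratio of 3.32 was 5.49 without library 2.

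No compared cytotoxic and effector gene was lower in CD8 cells (median ratio 1.24), and 2 memory genes and NK-type receptors were (median 1.54). Both counts depended on library 1. Gzmb, a granzyme that triggers death of target cells, stood at 449, 19.9, 55.3 and 5.11 CPM in CD8 cells and 69.2, 8.94, 51.9 and 0 in CD4 cells, so that library 1 lay far above the rest. Klrk1, the activating receptor NKG2D, stood at 546, 68.9, 98.7 and 66.5 against 19.8, 23.9, 0 and 50.1 CPM. Without library 1 the ratio fell from 4.02 to 1.86 for Gzmb and from 6.099 to 2.97 for Klrk1. The counts became 3 higher of 14 effector genes (median ratio 1.01), and 4 higher and 4 lower of 17 memory genes (median 1.101), where 4.84% of 7272 genes were higher. Gzma, another granzyme, rested on 9 CD8 cells, with 29.1% of its UMIs in 1 of them, and stood at 151, 7.65, 557 and 10.2 CPM in CD8 libraries. Its ratio of 1.87 turned to 0.691 without library 3 and rose past 2-fold, to 3.699, without library 2.

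Genes of helper and regulatory T cells were the counterpart. Of 10 compared genes of the CD4 lineage list, 7 were lower in CD8 cells and none higher (median ratio 0.393, and 0.453 with 7 of 10 lower without library 1). Cd40lg, the ligand by which helper cells activate B cells, stood at 19.5, 12.2, 3.95 and 35.8 CPM in CD8 cells against 79.1, 128, 90.8 and 140.3 in CD4 cells (7.67-fold lower, 4.62 to 13.3), and no library overlapped. Icos, a costimulatory receptor, was 2.16-fold and Rora, a transcription factor, 2.53-fold lower, and the Icos ratio of 0.462 fell short of 2-fold at 0.54998 without library 4. Tnfrsf4, the OX40 receptor, had 41 UMIs in CD4 cells and none in CD8 cells (at least 29.1-fold lower). Zbtb7b, the factor that sets the CD4 fate, had 5 and 12 UMIs and was too low to compare.

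Outside this list, Maf, a transcription factor of helper cells, stood at 4.88, 16.8, 31.6 and 5.11 CPM in CD8 cells against 326, 146, 169 and 120.3 in CD4 cells (10.9-fold lower, 6.76 to 18.3). The integrin chain Itgb1 (208 against 546 CPM), the surface protein Ly6a (65.8 against 246 CPM) and the transcription factor Runx1 (234 against 551 CPM) were also lower in CD8 cells of every library. Genes in no list, such as Maf and Runx1, were named only if their direction was the same in all 4 libraries. Of the other named genes, St8sia6, Tmem64, Nxpe3, Tspan32, Trat1, Cpm, Arhgap31, Tesc and Mdfic were 2.65-fold to 13.4-fold lower. Fam241a, Cd7, Plac8, Sidt1, Auts2, Dnajc15, Atp8b4, Pde2a and Gab3 were 2.92-fold to 10.8-fold higher. Cd7, a surface protein of T and NK cells, stood at 468, 42.8, 43.4 and 15.3 CPM in CD8 cells, high in library 1, and its ratio of 10.8 was 3.25 without that library and 46.8 without library 2. Leaving out library 2 also moved the ratios of Fam241a from 7.25 to 4.73, of Plac8 from 9.65 to 3.74 and of Cpm from 0.319 to 0.186. Without library 3 the ratio of Plac8 was 31.5 and that of St8sia6 0.0212 in place of 0.0745. Tesc, at a ratio of 0.332, was 0.177 without library 1 and fell short of 2-fold at 0.507 without library 2.

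Naive and central memory genes did not separate the sets. Of 18, only Ccr9, a gut-homing receptor with 21 UMIs in CD8 cells and 1 in CD4 cells, reached 2-fold, the median ratio was 0.979, and the list summed to 9087 CPM in CD8 and 9026 in CD4 cells. Lef1, a transcription factor of naive T cells, stood at 517, 767, 908 and 874 CPM in CD8 cells and 455, 963, 1012 and 752 in CD4 cells, lowest in library 1 on both sides. The IL-7 receptor Il7r stood at 813 against 846 CPM. No member of the early response (11 compared), interferon (12) or MHC class I (11) lists reached 2-fold. Of 11 residency genes, Itgae, the integrin of epithelial T cells, was higher (27.5 against 3.26 CPM, on 36 and 2 UMIs), and 2 were lower. Over all compared genes 4.64% were higher and 4.34% lower, so that so few calls do not mark residency genes as a group. Pdcd1, the checkpoint receptor PD-1, was seen in 5 CD8 cells.

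Few checkpoint and cytokine receptor genes reached 2-fold, and those went in both directions. Of all 7860 compared genes, 4.64% were higher and 4.34% lower. Without library 1, 1 of 10 checkpoint genes was higher and 1 lower, and of 13 cytokine receptor genes none was higher and 1 lower. Of 12 compared checkpoint genes, the receptor Cd244a (30.6 against 11.4 CPM) and the nuclear receptor Nr4a2 (149.9 against 66.8 CPM) were higher, and Pdcd1 (11.5 against 24.5 CPM) and the ectonucleotidase Entpd1 (16.1 against 37.5 CPM) were lower. Tox, a transcription factor of persistently stimulated T cells, stood at 291 against 497 CPM, short of 2-fold. Of 15 cytokine receptor genes, the IL-12 receptor chain Il12rb2 was higher (39.8 against 19.6 CPM), and the IL-6 receptor Il6ra (70.4 against 145 CPM) and the IL-33 receptor Il1rl1 (0 against 39.1 CPM, at least 17.1-fold) were lower. In the trafficking list 1 of 10 genes, Ccr2, was lower. Cell cycle genes summed to 868 CPM in CD8 cells of library 1 and to 135 CPM in the lowest library, and without library 1 none of the 3 compared reached 2-fold.

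**Figure D2:**
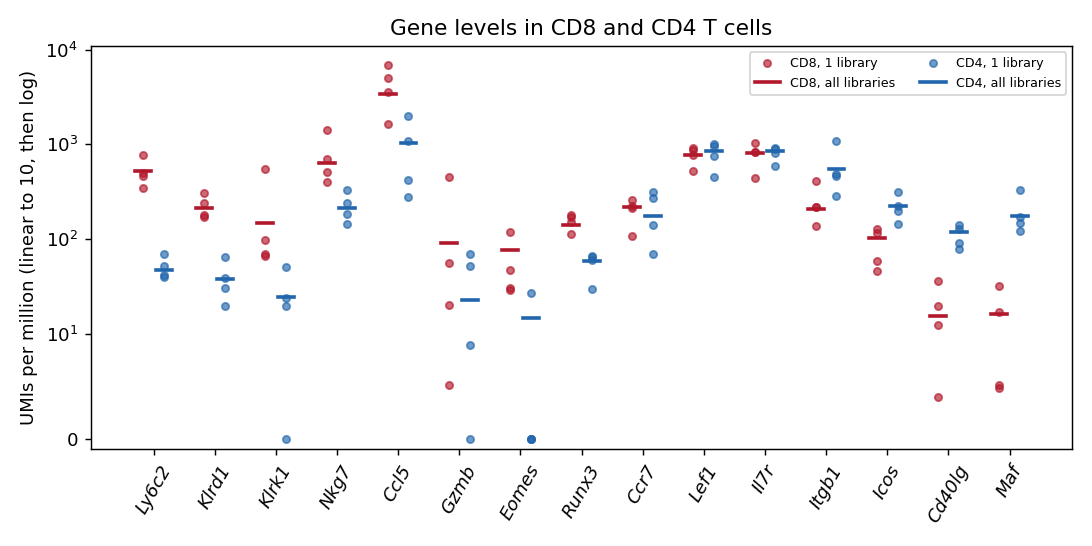
Levels in CPM (vertical axis, linear to 10 and logarithmic above) of 15 genes in CD8 (red) and CD4 (blue) T cells, as 1 point per library and a bar for all libraries together. Ly6c2, Klrd1, Nkg7 and Runx3 show no overlap, Gzmb and Klrk1 are high in 1 CD8 library, and Lef1 and Il7r overlap.

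The fate reporter (tdtomato in the table) was rare in CD8 cells. It stood at 42.1 CPM (31.7 to 54.8) in CD8 cells, 74.996 in CD4 cells, 207 in NK cells and 20.3 in B cells, and at 9.76, 59.7, 19.7 and 46.01 CPM in CD8 cells of libraries 1 to 4. A tdTomato UMI was seen in 12.4% (8.496 to 17.4) of CD8 cells and 7.43% (6.11 to 8.93) of B cells, and after thinning in 2.59% and 2.32%. Ccr2 itself stood at 13.8 CPM in CD8 cells, 35.9 in CD4 cells and 114 in NK cells. Free RNA and low reporter expression cannot be told apart at these levels.

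CD8 cells were far from uniform, and Ccl5 divided them. A Ccl5 UMI was present in 101 of 233 CD8 cells (43.3%, 36.9 to 49.98), in 30 of 43, 34 of 102, 21 of 45 and 16 of 43 cells of libraries 1 to 4. Library 1 was highest at 69.8% (53.9 to 82.8) and library 2 lowest at 33.3% (24.3 to 43.4). The share was 20% of CD4 cells, 97.6% of NK cells and 1% of B cells, and 37.9% of CD8 cells and 0.0725% of B cells after thinning. Positive cells were rarely near the threshold: their median was 35 Ccl5 UMIs, 81 of 101 had at least 10, 2 had exactly 1 and 4 had 2. The median depth was 5412 UMIs in positive and 4994 in zero cells.

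**Figure D3:**
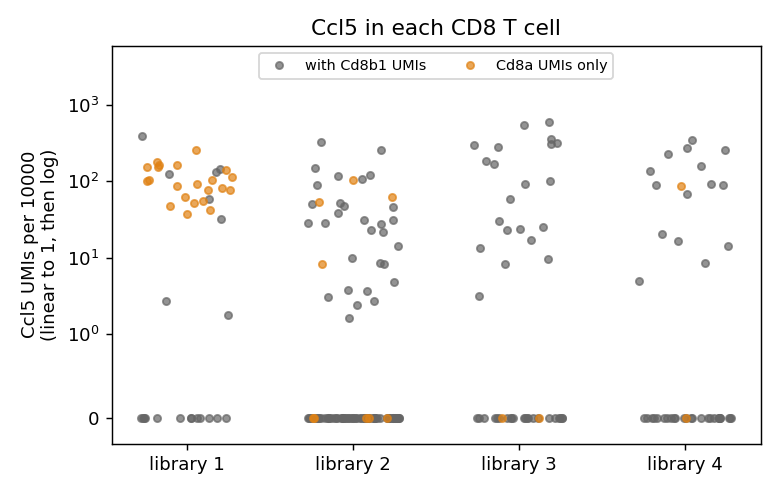
Ccl5 UMIs per 10000 UMIs (vertical axis, linear to 1 and logarithmic above) in each of the 233 CD8 T cells by library, with cells that had Cd8a but no Cd8b1 UMIs in orange. Most of the 101 positive cells lie far above 0, and 22 of the 30 positive cells of library 1 are orange.

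Ccl5-positive CD8 cells carried more of the memory, NK-type receptor and killing genes, and less of part of the naive genes. Of 6634 genes compared, Ccl5 left out, 568 (8.56%) were at least 2-fold higher and 235 (3.54%) lower in positive cells, and the median ratio was 1.11. Of 19 memory genes and NK-type receptors, 16 were higher and none lower, with a median ratio of 7.57, and of 13 cytotoxic and effector genes 9 were higher and none lower, with a median of 5.21. Without library 1 these became 12 of 16 (median 3.65) and 7 of 12 (3.26), where 6.44% of 6038 genes were higher. Counted with median-of-ratios scaling in place of the total, 419 genes were higher and 353 lower, so that the balance of the whole table depends on the scaling. The cells were split by Ccl5, so that these values describe how CD8 cells varied and the split is a range of cells, not a type.

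Within the memory list, Il2rb, Cxcr3, Cd44 and Il18rap were higher in positive cells of every library. The separate lists of cytokine receptors and trafficking genes had few calls: of 13 cytokine receptor genes 1 was higher and 2 lower (median ratio 1.05), and of 9 trafficking genes none was either (median 1.19). Il2rb, a receptor chain for IL-15, stood at 523, 279.6, 258 and 282 CPM in positive cells of libraries 1 to 4 and 121, 82.2, 105 and 24.04 in zero cells (4.24-fold, 3.15 to 5.79). Cxcr3, a chemokine receptor for entry into inflamed tissue, stood at 95.1, 70.9, 49.9 and 70.6 against 0, 12.1, 15.04 and 0 CPM (7.57-fold, 3.37 to 19.98). Ly6c2 was 3.33-fold higher, the adhesion receptor Cd44 4.502-fold, Itgb1 4.02-fold and the IL-18 receptor chain Il18rap 11.7-fold. For Il2rb, Cxcr3, Cd44 and Il18rap every positive library lay above every zero library, with a ratio for Il18rap of 17.6 without library 4, whereas Ly6c2 of positive cells in library 1 lay just below that of zero cells in library 3.

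Some granzymes were seen in positive cells alone. Gzmb had 120 UMIs in 28 positive cells and none in the 132 zero cells, at least 50.5-fold higher when 3 UMIs are allowed for a count of 0, and Gzmm and Gzma were likewise at 0 in zero cells. Positive cells held Gzmb at 625, 54.2, 116 and 14.1 CPM in libraries 1 to 4, so that library 1 gave most of it, and the bound was 14.6-fold without library 1 and 33.3-fold without library 2. Nkg7 stood at 1807, 630.1, 998 and 1102 CPM in positive and 364, 266, 436 and 176 in zero cells, with no overlap (3.68-fold, 3.14 to 4.32), and Fasl, a death ligand, had 58 UMIs against 3 (24.4-fold, 7.95 to 122). The calcium-binding gene S100a4, which rises in memory T cells, stood at 2676, 584, 383 and 607 CPM in positive cells and 0, 24.2, 158 and 0 in zero cells. Its ratio of 25.4 was 11.5 without library 1 and 75.2 without library 3, so that its size is loosely set. Ctla2a, S100a6, Ahnak, Ctsw, Gng2 and Samd3 were 5.36-fold to 9.15-fold higher. Without library 2 the ratio was 9.22 for Ahnak, 10.5 for Ctsw and 14.3 for Samd3, and without library 3 8.63 for Gng2. S100a6 was 3.55 without library 1 and 9.79 without library 3.

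Nkg7 and Gzmb were each higher in positive than in zero cells, and the bases before their starts are shown for that reason (RefSeq, GRCm38.p6). Nkg7 was seen in 94 and Gzmb in 28 of the 101 positive cells, and their overlap in single cells was not tested. Capitals mark TGTGGT or its reverse complement ACCACA, a core bound by RUNX factors, and GTGTGA or its reverse complement TCACAC, a core bound by T-box factors such as Eomes. They were searched on both strands and no match overlapped another.
Nkg7, plus strand, chr7:43436888-43437072: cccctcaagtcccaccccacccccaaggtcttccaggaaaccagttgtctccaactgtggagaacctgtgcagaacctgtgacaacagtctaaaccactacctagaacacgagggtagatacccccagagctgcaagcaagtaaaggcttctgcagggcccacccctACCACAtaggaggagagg
Gzmb, minus strand, chr14:56262335-56262584: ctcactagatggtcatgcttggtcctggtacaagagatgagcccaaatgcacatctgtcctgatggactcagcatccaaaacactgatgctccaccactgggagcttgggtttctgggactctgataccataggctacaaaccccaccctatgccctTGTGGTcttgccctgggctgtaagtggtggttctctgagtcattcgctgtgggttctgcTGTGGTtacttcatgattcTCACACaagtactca
Nkg7 has 1 RUNX core in its 185 bases, which 10.7% of all 32851 promoter windows of that length hold, and no T-box core. The window before Cd8a shown above and 234 bases before Fcer1g, a gene described below, were searched alike and held neither core. Gzmb has 2 RUNX cores and 1 T-box core in 250 bases, against 14.1% and 12.3% of windows with at least 1. A match describes letters in a window and is not a measured binding site.

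Transcription factors of effector cells were among the higher genes. Tbx21 stood at 122, 45.9, 24.95 and 70.6 CPM in positive cells of libraries 1 to 4 and at 0, 9.67, 15.04 and 8.01 in zero cells (6.67-fold, 2.94 to 17.7), and every positive library lay above every zero library. Id2, which restrains E-protein factors, was 3.903-fold higher (289 against 74.03 CPM). Eomes stood at 114 against 47.98 CPM, but 1 cell held 46.97% of its UMIs in positive cells. Ifng, the cytokine interferon gamma, stood at 91.7 against 10.97 CPM. Of 11 MHC class I genes none reached 2-fold, and their median ratio was 1.47, with H2-K1 at 2683, 1469, 1431 and 2090.2 against 1195, 1191, 1180.3 and 1162 CPM and no overlap between positive and zero libraries. Of 8 residency genes, Itga1, the chemokine receptor Cxcr6, the signalling regulators Rgs1 and Rgs2 and the factor Bhlhe40 were higher and Itgae was lower, and without library 1 the count was 1 higher and 1 lower of 7. Itga1 stood at 462, 62.6, 41.6 and 70.6 CPM in positive cells, high in library 1, and its ratio of 16.8 was 5.57 without library 1 and 38.2 without library 3.

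Zero cells were higher in part of the naive program. Of 18 naive and central memory genes, 5 were at least 2-fold lower in positive cells and none higher (median ratio 0.619, and 3 of 17 with 0.768 without library 1). Ccr7 stood at 329, 307, 346 and 305 CPM in zero cells against 20.4, 167, 91.5 and 56.5 in positive cells (3.14-fold lower, 2.35 to 4.27), and Lef1 at 1264, 928, 1075 and 1138 against 224, 488, 724 and 409.6 (2.21-fold lower, 1.92 to 2.55), with no overlap for either. The Ccr7 ratio of 0.318 was 0.163 without library 2, and that of Lef1, 0.452, fell short of 2-fold at 0.543 without library 1. Dapl1, a gene of naive and central memory CD8 cells, was 2.61-fold and Igfbp4, a binding protein for insulin-like growth factors, 4.8004-fold lower. Ifngr2, a chain of the interferon gamma receptor, stood at 156, 114, 52.6 and 88.2 CPM in zero and 20.4, 25.04, 0 and 0 in positive cells (6.51-fold lower, 3.25 to 14.8). Tcf7, Il7r, Satb1 and Bach2 did not reach 2-fold. Fibroblast markers summed to 951 CPM in zero and 453 in positive cells, and NK markers, some of them shared with killer T cells, to 64.4 and 690.4. Their part in the split was not tested.

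**Figure D4:**
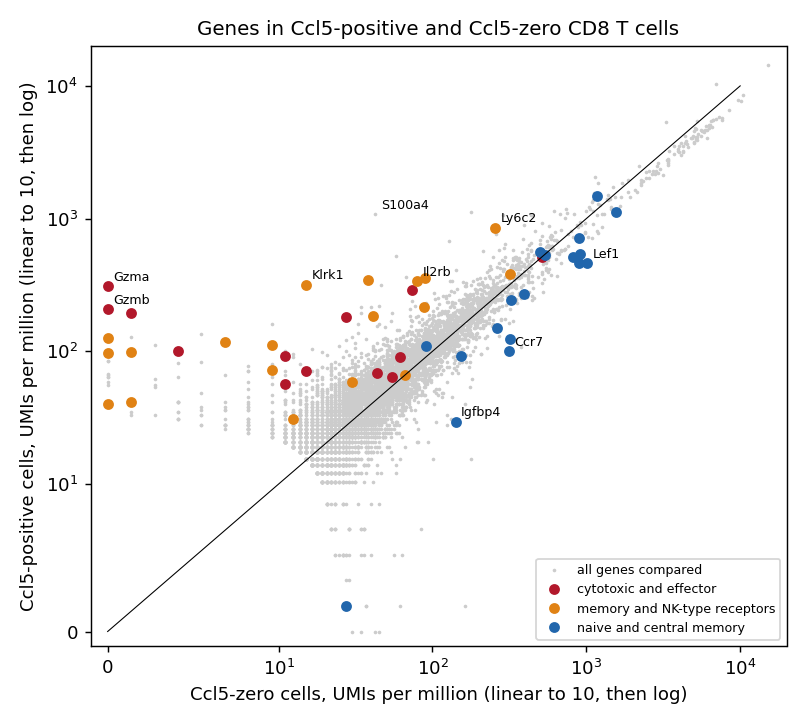
Level of each compared gene in the 132 Ccl5-zero (horizontal axis) and 101 Ccl5-positive CD8 T cells (vertical axis), in CPM, with axes linear to 10 and logarithmic above and a line of equal level. Memory and killing genes lie mostly above the line, and Ccr7, Lef1 and Igfbp4 below it.

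The reporter was uneven within CD8 cells. The tdtomato transcript stood at 72.7 CPM in Ccl5-positive and 17.8 in zero cells (4.08-fold, 2.15 to 8.28). It stood at 6.79, 129, 33.3 and 84.7 CPM in positive and 17.3, 19.3, 7.52 and 24.04 in zero cells of libraries 1 to 4, and was higher in positive cells of all libraries but library 1.

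Library 1 differed from the others in the coreceptor chains of its CD8 cells, in a comparison added after the data had been seen. Of the 233 cells, 127 had UMIs of both Cd8a and Cd8b1, 71 of Cd8b1 only and 35 of Cd8a only. Cells with Cd8a only were 22 of 43 CD8 cells in library 1 (51.2%) and 9 of 102, 2 of 45 and 2 of 43 in the others (8.82%, 4.44% and 4.65%). In a cell with few Cd8 UMIs the second chain can be missed, and their median depth was 4866 UMIs against 5573 in cells with both chains. The chain values are those the rule used, and the genes below are not.

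The 22 cells of library 1 shared a receptor and killing profile that the other Cd8a-only cells did not show. Ccl5 was present in all 22, Fcer1g, the signalling adaptor of Fc and NK-type receptors, in 21, the transcription factor Ikzf2 in 19, Gzmb and Xcl1 in 17 each and the NK1.1 gene Klrb1c in 11. Among the 13 Cd8a-only cells of libraries 2 to 4, Fcer1g, Gzmb and Klrb1c were seen in none, Xcl1 in 1, Ikzf2 in 5 and Ccl5 in 5. Fcer1g stood at 1708 CPM in the 22 cells and at 0 in cells of library 1 with Cd8b1, and at 0 and 42.4 in Cd8a-only and Cd8b1-carrying cells of the other libraries. Ikzf2 stood at 956, 41.1, 655 and 65.5 CPM in the same order. Cells with Cd8b1 in library 1 were thus not high for either gene. The Ikzf2 level of the 13 cells rests on 42 UMIs, of which 1 cell held 27 and another 10, and 8 of the 13 had none.

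Over all libraries, 719 of 6635 compared genes (10.8%) were at least 2-fold higher and 615 (9.27%) lower in Cd8a-only than in Cd8b1-carrying cells (median ratio 1.10). With median-of-ratios scaling the counts were 507 higher and 762 lower, and without library 1, on 13 Cd8a-only cells, 664 and 1093. Library 1 carried the higher levels of the receptor and killing genes. Ccl4, a chemokine of activated killer cells, stood at 845 CPM in Cd8a-only and 41.1 in Cd8b1-carrying cells of library 1, and at 62.4 and 14.4 in those of libraries 2 to 4. Klrk1 stood at 1021 and 20.6, and 109 and 73.2 CPM, Cd160 at 306 and 51.4, and 31.2 and 23.1 CPM and the NK cell kinase gene Styk1 at 259.9 and 0, and 31.2 and 6.74 CPM, in the same order. Outside library 1 the Cd8a-only levels rest on 2 to 7 UMIs per gene, none of them in libraries 3 and 4. The MHC class I receptor Klra9 had 72 UMIs in 16 Cd8a-only cells, all of library 1, and 1 UMI in Cd8b1-carrying cells. All 41 Klra7 UMIs of Cd8a-only cells and 26 of 30 Klra1 UMIs were also in library 1. Klra genes are close copies of each other, so that their reads may be split between members. Of 19 memory genes and NK-type receptors, 13 were higher and 2 lower, and of 14 effector genes 8 were higher and 1 lower. Without library 1 these became 2 higher and 3 lower of 16 and 0 higher and 6 lower of 13, where 10.995% of 6039 genes were higher and 18.1% lower.

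Naive genes were low in the Cd8a-only cells of library 1. Of 18 naive genes 8 were lower and none higher over all libraries, and without library 1 the count was 2 higher and 2 lower of 17. The list summed to 2701, 10247, 13688 and 11938 CPM in Cd8a-only cells of libraries 1 to 4 and to 9070.1, 9606, 10018 and 9200.4 in Cd8b1-carrying cells. The sums of Cd8a-only cells were lower in library 1 and higher in the others, on only 2 cells in each of libraries 3 and 4. Themis stood at 55.7 CPM in the 22 Cd8a-only cells of library 1 and 546 in the 13 of libraries 2 to 4, against 607 and 727 in Cd8b1-carrying cells. Lef1 stood at 111 and 1092 against 967 and 801 CPM. The 22 cells were the low group for both genes. Klf2, a factor that keeps the lymph node exit and homing genes on, stood at 121 and 421 against 586 and 796 CPM. Fibroblast markers were lower in Cd8a-only cells for 4 of 5 genes, with sums of 268 against 801 CPM, and their part in the lower genes was not tested.

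NK markers were mixed in the Cd8a-only cells. Of the 8 genes of the NK list, 4 could be compared, of which the receptor gene Klre1 and Prf1 were higher and Gzma lower than in Cd8b1-carrying cells. The list summed to 599 against 302 CPM, and to 11417 CPM in NK cells. By library the sums were 882, 158, 0 and 108 CPM in Cd8a-only cells of libraries 1 to 4 and 359.9, 200.2, 709 and 75.1 in Cd8b1-carrying cells. Libraries 3 and 4 held 2 Cd8a-only cells each, and 108 CPM in library 4 is 1 UMI. Klrb1c had 18 UMIs in 11 of the 35 cells (105 CPM), all in library 1, against 621 CPM in NK cells. Gzma, at 7065 CPM in NK cells, had no UMI in the 35 cells, and Ncr1, the NK receptor NKp46, at 830.1 CPM in NK cells, had 2. The part of NK transcripts in these values was not tested. Trac was present in 26 of the 35 cells at 413 CPM, against 19.1 in NK cells, and Ikzf2 stood at 38.1 CPM in NK cells. At least 1 gamma or delta TCR gene was seen in 16 of the 35 (45.7%, 28.8 to 63.4). It was seen in 7 of 127 cells with both chains (5.51%) and 6 of 71 with Cd8b1 only (8.45%). Most of this came from the gamma chain genes Trgv2, seen in 13 of the 35, and Tcrg-C2, seen in 8. Tcrg-C4 was seen in 4 and Tcrg-C1 in 2. Trdc, the constant part of the delta chain, was seen in 2 of the 35, and in 3 and 2 cells of the other groups. Whether any of these were gamma delta T cells was not tested. Scrublet marked 1 of them. Cell cycle genes summed to 972 CPM against 174, and without library 1 to 140.4 against 171, and 1 cell held 55.6% of the Mki67 UMIs.

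**Figure D5:**
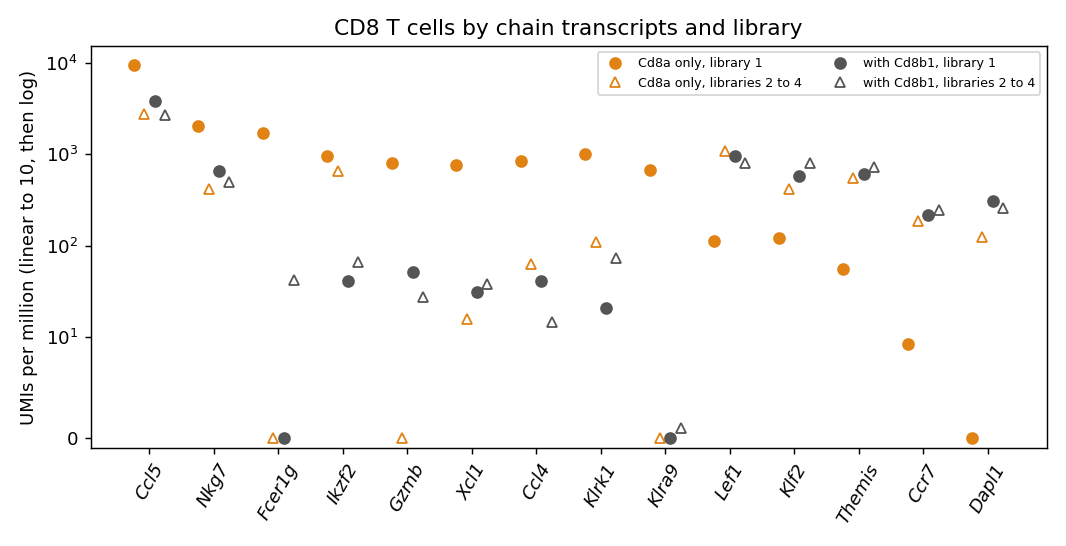
Levels in CPM (vertical axis, linear to 10 and logarithmic above) of 14 genes in CD8 T cells with Cd8a UMIs only (orange) and with Cd8b1 UMIs (grey), in library 1 (filled circles) and libraries 2 to 4 (open triangles). The 22 Cd8a-only cells of library 1 stand apart for Fcer1g, Gzmb, Xcl1, Klra9 and Themis.

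Leaving out every cell without a Cd8b1 UMI changed what CD8 cells as a whole showed against CD4 cells. The ratio became 1.27 for Gzmb, 1.19 for Xcl1 and 1.77 for Ctsw, all under 2-fold, and 2.39 for Nkg7 and 2.81 for Klrk1. The 35 Cd8a-only cells held 72.5% of the Gzmb, 66.4% of the Xcl1 and 36.4% of the Ctsw UMIs of CD8 cells.

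Killing genes stood far lower in CD8 cells than in the 83 NK cells, which were chosen by Nkg7. Gzma stood at 137 CPM (118 to 159) in CD8 cells and 7065 (6796 to 7342) in NK cells. Prf1, the pore-forming perforin, stood at 39.8 (29.7 to 52.2) against 857 (765 to 957), and Gzmb at 91.8 (76.1 to 109.8) against 844 (752 to 943). Ccl5 stood at 3398 (3299 to 3499) against 12898 (12533 to 13270.2) CPM. Ly6c2 was near equal, at 520.2 (482 to 561) in CD8 and 549.8 (477 to 631) in NK cells, with overlapping intervals.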

How the data were processed

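Single-cell UMI counts were read from 1 raw count matrix that the authors deposited, with 32286 features and 39731 barcodes in 4 libraries told apart by barcode suffix. Cell Ranger 7.1.0 and the build mm10 are named per the submitters' processing notes. The sources used here do not give how the libraries were joined or whether intronic reads were counted. No label or file ties a suffix to a sample, so stroke and control were not compared, and 2 samples against 2 could not go below a two-sided exact permutation p of 0.333. Barcodes with at least 500 UMIs, 250 genes and at most 15% mitochondrial UMIs were kept (38910). UMIs were summed over the cells of a set and given as CPM. Genes with at least 20 UMIs in both sets together were compared and called at 2-fold. There is no test, since the table counts as 1 sample, and cells are not replicates. A count of 0 was set to 3 UMIs for a bound.

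The 12 genes of the rule were left out of all counts. Genes named beyond the lists were, in each direction, the 15 with the largest ratio (20 CPM added) among those at 100 CPM or more in the higher set, with the same direction in all 4 libraries. For Cd8a-only cells, which number 2 in each of libraries 3 and 4, the direction was asked for in library 1 and in libraries 2 to 4 together, a rule set after the data were seen. The members and the gene lists were chosen with earlier results of these data known. Some genes that the lists and this rule hold are not reported here. Doublets were kept, and their removal was an alternative: Scrublet in scanpy 1.11.5 marked 2.13% to 4.40% of cells per library, and in library 3 its threshold of 0.6125 was replaced by the median of the others, 0.2077. Thinned values drew 1000 UMIs per cell and left out shallower cells. Other alternatives were stricter cell filters and thresholds, median-of-ratios scaling, other minimum counts, equal weight for cells or libraries, and leaving out each library. Python 3.11.15, numpy 2.4.6, scipy 1.17.1 and pandas 2.3.3 were used, and the gene comparison was tested on simulated data. Gene positions and upstream sequences come from the given annotation and from RefSeq (GRCm38.p6). Upstream windows end before the gene's start in both.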

Additional observations from a re-analysis of the deposited data

How the results depend on the processing

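The share of CD8 cells (0.599%) was 0.488% with at least 2 Cd8 UMIs, 0.509% with Cd8b1 required and 0.451% to 0.666% with 1 library left out. The Ccl5-positive share (43.3%) was 37.4% with Cd8b1 required and 37.4% to 51.1% with 1 library left out. The CD8 to CD4 ratio (1.73) was 1.41 with at least 2 Cd8 UMIs and 1.47 with Cd8b1 required. It was 1.57 to 2.11 with 1 library left out. The minimum count set the number of called genes: with at least 50 UMIs, 117 were higher and 106 lower in CD8 than CD4 cells, 219 and 63 in Ccl5-positive cells, and 273 and 184 in Cd8a-only cells, and with no minimum 3253 and 2839, 2968 and 2853, and 2728 and 4975. Median-of-ratios scaling gave 353 genes lower in Ccl5-positive cells in place of 235, and equal weight for libraries gave 1218 lower in Cd8a-only cells in place of 615. Leaving out 1 library gave 292 to 373 higher and 292 to 329 lower in CD8 cells, 389 to 597 and 148 to 265 in Ccl5-positive cells, and 613 to 705 and 410 to 1093 in Cd8a-only cells. The 148 came without library 2 and the 1093 without library 1. A higher minimum leaves fewer genes to compare, and the cause of the changes in these counts was not tested. Of 41 genes recomputed for CD8 against CD4 cells and 30 for the Ccl5 split, no called ratio changed direction. Most of these genes had been named for the same direction in all 4 libraries. Leaving out 1 library could therefore hardly turn them. Gzma, not called in CD8 against CD4 cells, turned to a ratio of 0.691 without library 3. No paired analysis was possible because the libraries are not tied to the samples' replicate numbers. Sets of 13 to 233 cells limit most values, and those of Cd8a-only cells in libraries 3 and 4 rest on 2 cells each. Genes under 20 UMIs were not compared. The Cd8a-only comparison and the requirement for Cd8b1 were chosen after seeing the data.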
